A study of Rattus norvegicus with 20 samples.

Results

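The genes followed here serve the traffic of thyroid hormone and iodide in the choroid plexus of the rat. They are Ttr (ENSRNOG00000016275), which encodes the thyroxine carrier transthyretin, Slco1c1 (ENSRNOG00000009740), which encodes a thyroxine transporter of the cell membrane, and Slc5a5 (ENSRNOG00000018822), which encodes the sodium/iodide symporter. These are 3 of the 32883 Ensembl genes listed for each library, chosen by name, with earlier results of these data known. Across the 20 libraries, Ttr was the most abundant transcript in every rat, Slco1c1 ranked between 324 and 768, and Slc5a5 ranked between 1148 and 2010. None of the 3 genes passed the test over all genes between obese and lean rats of the same cohort or between obese + TT and lean control rats. Most of the differences found lay between the untreated and the injected cohort, where 58.2% and 58.1% of all genes tested were called in the lean and in the obese groups.

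The choroid plexus epithelium secretes the cerebrospinal fluid (CSF) and makes transthyretin, which carries thyroxine in that fluid. Thyroxine crosses membranes only through transporters, among them the product of Slco1c1, and a deiodinase in target cells turns it into the active hormone. The sodium/iodide symporter is best known from the thyroid gland, where it takes up iodide for hormone synthesis, and the choroid plexus is known to take iodide out of the CSF.

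RNA was taken from whole choroid plexus of female Zucker rats, 16 weeks of age, with 1 library per rat. The untreated cohort consisted of 6 lean rats, heterozygous for the leptin receptor mutation (+/fa), and 6 obese rats, homozygous for it (fa/fa), which overeat on normal chow. The injected cohort consisted of 4 lean rats given the sesame oil vehicle (Lean+VEH, termed lean control) and 4 obese rats given testosterone propionate in the same oil (Obese+TT, termed obese + TT), under the skin and repeatedly over the last weeks before sampling. No obese rat received vehicle alone and no lean rat received testosterone, so obesity and testosterone cannot be told apart within the injected cohort, cohort and injection cannot be told apart between the lean groups, and cohort, injection and testosterone cannot be told apart between the obese groups.

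The stretches of DNA just before the start sites of the members are shown because thyroid hormone, and the androgen given to the obese + TT rats, act through receptors that bind DNA. RefSeq (build GRCr8) gave the 250 bases before the start for 2 of the 3 members, Ttr at chr18:12218508-12218757 and Slc5a5 at chr16:18580455-18580704, both on the plus strand and written 5′ to 3′. No letters are in capitals, since neither motif searched for was found in either stretch.

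Ttr: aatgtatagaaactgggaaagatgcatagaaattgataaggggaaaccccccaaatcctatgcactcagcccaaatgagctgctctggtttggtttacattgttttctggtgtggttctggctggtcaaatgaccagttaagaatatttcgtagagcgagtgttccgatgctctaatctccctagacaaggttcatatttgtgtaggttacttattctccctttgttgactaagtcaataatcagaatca
Slc5a5: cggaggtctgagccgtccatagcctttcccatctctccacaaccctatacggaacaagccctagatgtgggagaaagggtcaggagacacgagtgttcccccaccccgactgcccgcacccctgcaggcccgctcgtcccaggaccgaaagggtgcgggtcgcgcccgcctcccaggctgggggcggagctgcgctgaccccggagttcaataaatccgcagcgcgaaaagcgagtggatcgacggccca

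The thyroid hormone receptor half-site AGGTCA, or its reverse complement, occurs in 14.1% of 33469 rat promoter stretches of the same length, and the androgen receptor half-site AGAACA in 17.5% of them. The stretch of Ttr held 40.4% G and C and that of Slc5a5 held 65.2%. The absence of these letters from a short window says nothing of where else the receptors may bind.

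The abundance of each gene was deposited as TPM (transcripts per 1000000, adjusted for gene length), which sums to the same total in every library, so that levels of different genes can be set side by side. The read depth of each library is not known, and the libraries listed 14968 to 16860 genes above 0. The tissue markers differed between the cohorts. Of 10 epithelial markers, 9 had a symbol here, and their summed level was 7693 to 9522 TPM in lean, 7793 to 9356 in obese, 12075 to 13683 in lean control and 12779 to 14177 in obese + TT rats. Dcn, a matrix gene of stromal fibroblasts, went the other way, from 75.5 to 105 TPM in the 12 untreated rats to 6.82 to 13.9 TPM in the 8 injected rats, and Plvap, a gene of fenestrated capillaries, from 39.95 to 60.3 TPM to 1.68 to 10.6 TPM. Of the other fibroblast markers, Col1a1 went the same way as Dcn, from 3.42 to 9.57 TPM to 0.37 to 1.47 TPM, but Pdgfra rose, from 21.3 to 35.1 TPM to 39.3 to 77.2 TPM. Only 3 of 6 fibroblast markers and 1 of 9 endothelial markers (Plvap) had a symbol here, so the endothelium rests on a single gene. Within the cohorts, the summed level of 4 erythroid markers was 3105 to 5471 TPM in lean against 4052 to 7019 TPM in obese rats, and 2168 to 5768 TPM in lean control against 4799 to 8388 TPM in obese + TT rats. Their part in the results was not tested. In such bulk tissue, fewer cells of a type and less RNA per cell cannot be told apart. Markers of neurons, astrocytes, oligodendrocytes, macrophages, blood-brain barrier endothelium, thyroid follicular cells and hepatocytes had no symbol in the tables used and were not checked.

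**Figure D1:**
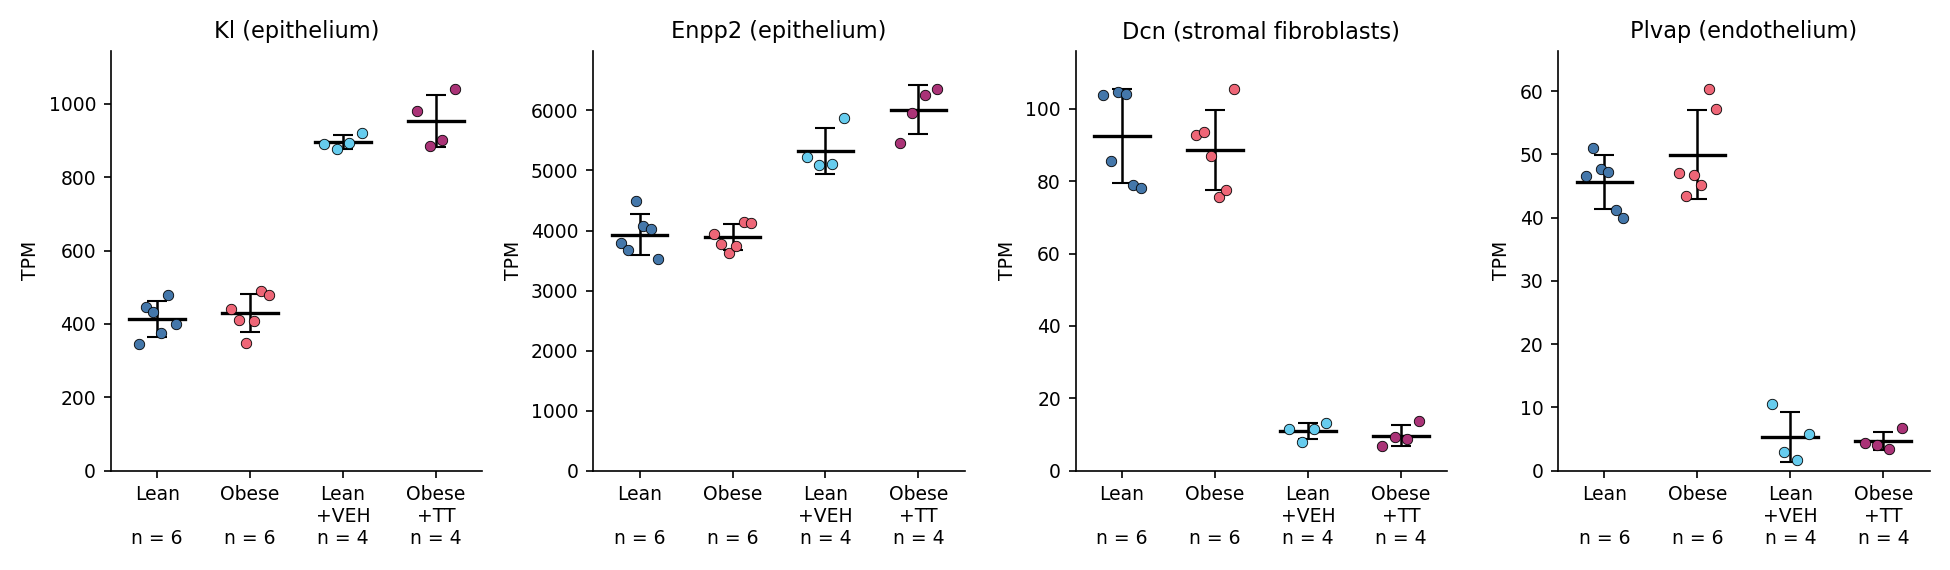
Level in TPM (vertical axes, from 0) of the epithelial markers Kl and Enpp2, the fibroblast marker Dcn and the endothelial marker Plvap in the 4 groups, with 1 point per rat and the mean ± SD as lines. All 8 injected rats lie above all 12 untreated rats for both epithelial markers and below them for Dcn and Plvap. Not every marker separated in this way. Of those not shown, the fibroblast marker Pdgfra was higher in the injected rats. The epithelial marker Aqp1 and the ependymal marker Dynlrb2 overlapped between the cohorts and were not called.

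Ttr, whose protein carries thyroxine and the retinol-binding protein and is the best known product of this tissue, led every library. Its level was lowest at 311516, 334519 at the median and highest at 390135 TPM in the 6 lean rats, and 322841, 342179 and 393331 TPM in the 6 obese rats. In the 4 lean control rats it was 294837, 305446, 283715 and 272069 TPM, and in the 4 obese + TT rats 265059, 295101, 257742 and 273699 TPM. The lean and obese rats overlapped, as did the lean control and obese + TT rats, while every injected rat was below every untreated rat. Such a lack of overlap with lower levels was found for 10.7% of all genes tested in lean control against lean rats and for 11.7% in obese + TT against obese rats.

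As a share of all TPM, Ttr was at 31.2 to 39.0% in lean, 32.3 to 39.3% in obese, 27.2 to 30.5% in lean control and 25.8 to 29.5% in obese + TT rats. The gene that followed it in every library was Cst3, which encodes the protease inhibitor cystatin C, at 2.83 to 4.80%. Because TPM is a share of a fixed total, a lower share of Ttr, with all else equal, raises the TPM of every other gene. The median log2 fold change over all genes tested was 0.24 in lean control against lean rats and 0.25 in obese + TT against obese rats. With the other genes rescaled to a total without Ttr, it was 0.14 and 0.10. The cause of the rest was not tested.

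Obese rats averaged 347007 ± 25275 TPM of Ttr and lean rats 340007 ± 27433 TPM (SD, n = 6 each). The log2 fold change was 0.03 (standard error 0.09, 95% interval -0.16 to 0.22, adjusted p = 0.955 from limma), and the exact two-sided permutation test gave p = 0.617. Without obese rat 10, which had the highest Ttr level of all rats, the log2 fold change was -0.0067. Obese + TT rats averaged 272901 ± 16174 TPM and lean control rats 289017 ± 14366 TPM (SD, n = 4 each). Their log2 fold change of -0.08 (95% interval -0.99 to 0.82) had an adjusted p of 0.977 from limma and p = 0.229 in the exact two-sided permutation test. That interval rests on limma's trend of spread with level, at whose far end Ttr lies. It is much wider than the SDs of the 2 groups would give, and is not a measure of the spread among these rats. In neither cohort did Ttr pass a test between obese and lean rats, and the groups overlapped in both.

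Between cohorts, the log2 fold change of Ttr was -0.23 for lean control against lean rats and -0.35 for obese + TT against obese rats, while the median over all genes tested was 0.24 and 0.25. Each library was also centred on the median of its genes averaging at least 10 TPM, here called centring. After centring, the values of Ttr were -0.49 and -0.61 (adjusted p = 0.271 and 0.0327 from limma). The exact two-sided permutation test gave p = 0.00952 for each of these pairs (adjusted p = 0.0190 over 18 tests of the 3 members in all pairs of groups), the least that groups of 4 and 6 rats can give. In limma, the first had an adjusted p of 0.378 (standard error 0.21) and the second of 0.0417 (standard error 0.13). Ttr lies at the far end of the range of levels, and the limma calls depended on how the spread was modelled there. Without a trend of the spread with the level, the adjusted p values from limma were 0.0259 and 0.00339, and the second was 0.0573 with a pseudocount of 1 and 0.637 with no filter on low values. It also rose to between 0.0621 and 0.125 when obese rats 7, 9, 11 or 12 or obese + TT rats 17, 19 or 20 were left out one at a time.

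Slco1c1, whose protein takes up thyroxine with high affinity at the barriers of the brain, was at 158, 170.0 and 221 TPM (lowest, median and highest) in the 6 lean rats and at 124, 146 and 169 TPM in the 6 obese rats. In the 4 lean control rats it was 208, 235, 244.5 and 292 TPM, and in the 4 obese + TT rats 216, 204, 242 and 241 TPM. Of the obese rats, 5 of 6 were below every lean rat, a pattern whose share over all genes was not computed. The injected rats were all above the obese rats. Such a lack of overlap held for 34.1% of all genes tested in obese + TT against obese rats. Lean rat 3, with the 221 TPM, was above 1 lean control rat and 2 obese + TT rats.

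Obese rats averaged 145 ± 16.9 TPM of Slco1c1 and lean rats 178 ± 23.8 TPM (SD, n = 6 each), so that the obese mean was lower, with a change of -18.5%. The log2 fold change was -0.29 (standard error 0.09, 95% interval -0.49 to -0.09). It had an unadjusted p of 0.00704 and an adjusted p of 0.321 from limma, and none of the 15176 genes tested was called in this comparison (0.0% of them), while 9.66% had an unadjusted p under 0.05. As 1 gene among 3 in 6 pairs of groups, it passed the exact two-sided permutation test (p = 0.0173, adjusted p = 0.0312), but not without lean rat 4 or lean rat 5 (adjusted p = 0.0519 from the exact test for each). Slco1c1 is in the list of changed genes that the study drew from these same 12 libraries, so its difference here is not independent evidence. In the injected cohort, obese + TT rats averaged 226 ± 19.2 TPM and lean control rats 245 ± 35.0 TPM (SD, n = 4 each). The log2 fold change there was -0.11 (95% interval -0.34 to 0.12, adjusted p = 0.839 from limma). The obese-lean differences of both cohorts differed by 0.18 on the log2 scale (standard error 0.15, adjusted p = 0.796 from limma).

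Between cohorts, Slco1c1 rose by 0.46 ± 0.11 (standard error) on the log2 scale in lean control against lean rats (limma, adjusted p = 0.00293) and by 0.64 ± 0.09 in obese + TT against obese rats (limma, adjusted p = 8.56e-05). In these comparisons 41.7% of all genes tested were called as higher and 16.5% or 16.4% as lower, and the median log2 fold change of all genes was 0.24 and 0.25. After centring, the values were 0.20 (adjusted p = 0.0743 from limma) and 0.38 (adjusted p = 0.00190 from limma).

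Slc5a5, the symporter that brings iodide into cells together with sodium, was at 42.98, 48.3 and 51.1 TPM (lowest, median and highest) in the 6 lean rats and at 42.99, 49.0 and 70.6 TPM in the 6 obese rats. In the 4 lean control rats it was 66.2, 58.1, 57.6 and 71.7 TPM, and in the 4 obese + TT rats 79.0, 77.0, 81.3 and 82.0 TPM. The obese + TT rats were above all other rats, and lay close together. Obese rat 11, at 70.6 TPM, stood apart from the 42.99 to 52.8 TPM of the other 5 obese rats and was higher than 3 of the 4 lean control rats.

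Obese + TT rats averaged 79.8 ± 2.27 TPM of Slc5a5 and lean control rats 63.4 ± 6.79 TPM (SD, n = 4 each), 25.9% higher in the former. The log2 fold change was 0.34 (standard error 0.08, 95% interval 0.17 to 0.51). Its unadjusted p of 0.00127 became an adjusted p of 0.385 in limma over 15259 genes, of which none was called (0.0%) and 7.43% had an unadjusted p under 0.05. The groups did not overlap, which was so for 2.37% of all genes tested in the same direction. The exact two-sided permutation test gave p = 0.0286, the least that 4 rats in each group can give (adjusted p = 0.0396 over the 18 tests, and 0.0571 in the exact test after centring). With any 1 of the 8 rats left out, no p under 0.0571 can be reached, and the log2 fold change stayed between 0.29 and 0.40, with adjusted p values from limma of 0.192 to 0.797, the highest without lean control rat 14. Slc5a5 is in the study's list of changed genes from these 8 libraries, so this is not independent evidence.

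In the untreated cohort, obese rats averaged 51.7 ± 10.1 TPM of Slc5a5 and lean rats 47.7 ± 3.48 TPM (SD, n = 6 each). The log2 fold change there was 0.10 (95% interval -0.12 to 0.32, adjusted p = 0.805 from limma). Without obese rat 11 it was 0.0053. The difference between the obese-lean differences of both cohorts was 0.24 on the log2 scale (standard error 0.15, 95% interval -0.07 to 0.55, adjusted p = 0.702 from limma), so that the larger difference in the injected cohort was not shown to exceed that in the untreated one.

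Between cohorts, Slc5a5 rose by 0.41 ± 0.08 (standard error) on the log2 scale in lean control against lean rats (limma, adjusted p = 0.000808) and by 0.65 ± 0.12 in obese + TT against obese rats (limma, adjusted p = 0.000529). Neither pair of groups overlapped, and the same held, with higher levels in the injected rats, for 34.0% and 34.1% of all genes tested. After centring, these values were 0.15 (adjusted p = 0.0418 from limma) and 0.38 (adjusted p = 0.00867 from limma). Neither pair passed the exact test after centring (adjusted p = 0.0779 and 0.0686 from the exact test).

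**Figure D2:**
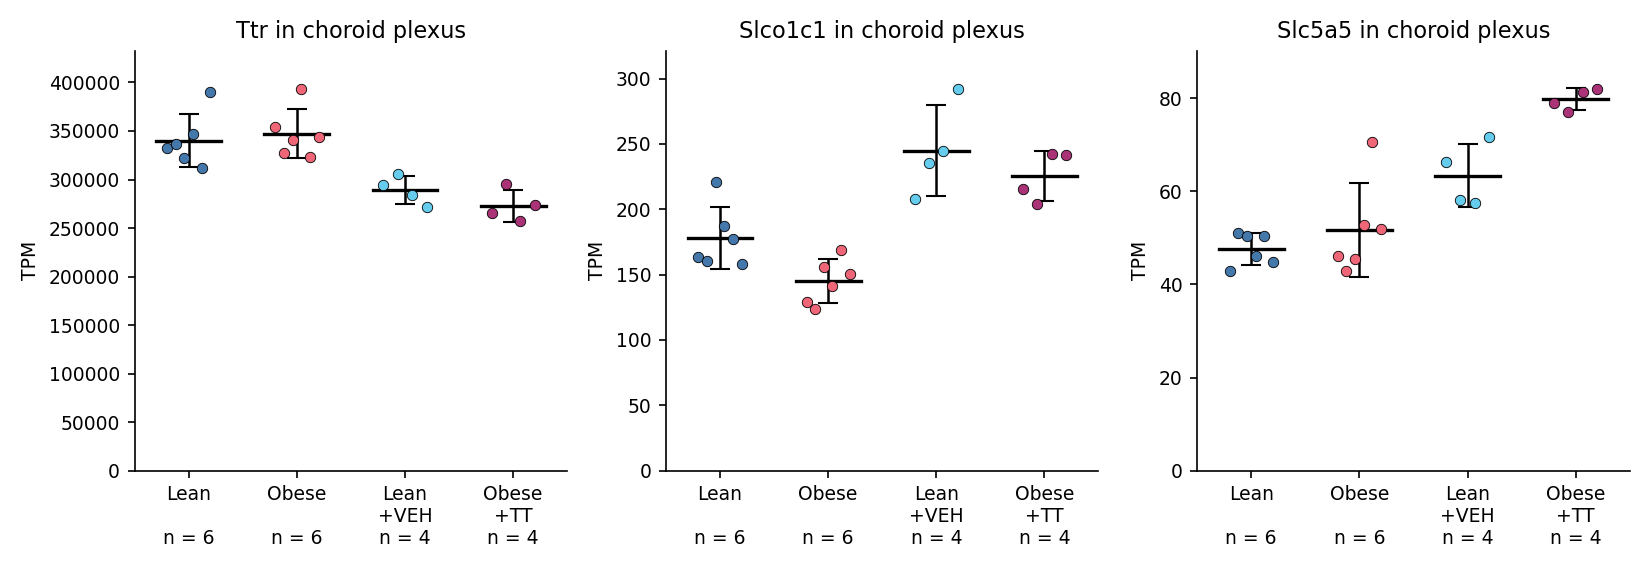
Level in TPM (vertical axes) of Ttr, Slco1c1 and Slc5a5 in the 4 groups, with 1 point per rat and the mean ± SD as lines. The 8 injected rats lie below the 12 untreated rats for Ttr, and the 4 obese + TT rats lie above all others for Slc5a5, where obese rat 11 is the highest of the untreated rats.

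The order of the group means was not the same for the 3 genes. For Ttr it ran from obese over lean and lean control to obese + TT, and of the neighbours only lean and lean control differed in the exact test. For Slco1c1 it ran from lean control over obese + TT and lean to obese. There, lean control and obese + TT did not differ beyond their spread (exact test, p = 0.457), while obese + TT and lean differed by 0.35 on the log2 scale (exact test, adjusted p = 0.0396, and 0.0659 to 0.0918 in all fits that left out 1 rat except that without lean rat 3), or by 0.07 after centring (exact test, adjusted p = 0.503), and lean and obese differed as above. For Slc5a5 it ran from obese + TT over lean control and obese to lean. Lean control and obese rats overlapped (exact test, adjusted p = 0.0735, and 0.0260 without obese rat 11), as did obese and lean rats (exact test, adjusted p = 0.484). In all, 13 of the 18 pairs passed at an adjusted p under 0.05 over the 18, and 8 after centring. Of the 13, 11 were among the 12 pairs between cohorts and 2 among the 6 within a cohort. The exact test was not run over all genes. Limma, adjusted over all genes tested, called 58.2% and 58.1% of them between the lean and between the obese groups, and 0.0% within the cohorts. Within the untreated and the injected cohort, 9.66% and 7.43% had an unadjusted p under 0.05 in limma. The counts of pairs and these shares come from unlike tests and adjustments, so an excess cannot be read from them.

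The epithelial markers were set beside the members, since the epithelium is the cell type that makes transthyretin. The mean log2 level of the 9 markers was 9.14 ± 0.12 in lean, 9.07 ± 0.24 in obese, 9.86 ± 0.08 in lean control and 9.92 ± 0.09 in obese + TT rats (SD, n = 6, 6, 4 and 4). Obese rat 10 had 7.85 TPM of Otx2, a transcription factor of the epithelium, where the obese median was 69.7 TPM. Against lean rats, 8 of the 9 markers were called as higher in lean control rats and none as lower, and against obese rats 7 of the 9 were higher in obese + TT rats and none lower.

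Relative to these markers, the log2 level of Ttr was 9.23 ± 0.22 in lean, 9.33 ± 0.33 in obese, 8.28 ± 0.14 in lean control and 8.14 ± 0.13 in obese + TT rats (SD). The injected groups were lower than the untreated groups in all 4 pairs, with log2 differences of -1.19 to -0.95 and without overlap (exact test, adjusted p = 0.0245 for each). Each call held in 6 of the 10 fits that left out a rat. In the others, the adjusted p from the exact test was up to 0.0612 for lean control and 0.0536 for obese + TT rats. The log2 differences stayed between -1.25 and -0.88. As a smaller group raises the smallest p that the test can give, this loss does not measure the stability of the differences. Ttr was thus lower in the injected rats on both scales, while most of the 9 markers were called as higher in TPM.

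For the other 2 members, lean control rats against lean rats turned direction on this scale. Any gene that rose less than the mean of the markers, which went from 9.14 to 9.86, does so. Over all genes tested, the upper quartile of the log2 fold change in this comparison was 0.69. Such a turn is thus not particular to these genes. Slc5a5 relative to the markers was -3.56 ± 0.06 in lean, -3.40 ± 0.29 in obese, -3.87 ± 0.10 in lean control and -3.60 ± 0.06 in obese + TT rats (SD), so lean control rats were lower than lean rats by a log2 difference of -0.31 without overlap (exact test, adjusted p = 0.0245), where they were higher in TPM. Obese + TT rats remained above lean control rats without overlap, by 0.28 (exact test, p = 0.0286, adjusted p = 0.0571). Slco1c1 relative to the markers was lower in lean control than in lean rats by a log2 difference of -0.26 (exact test, adjusted p = 0.0429, and 0.0686 with Otx2 left out of the markers), also the reverse of its direction in TPM. This call held in 1 of the 10 fits that left out 1 rat, that without lean rat 2, and the adjusted p was up to 0.107 in the exact test of the others. The difference of -0.31 in Slc5a5 lost its call without any 1 of the lean control rats (exact test, adjusted p = 0.0536 to 0.0612). As a group of 3 rats raises the smallest p that the test can give, this loss does not measure the stability of the difference. In obese + TT against lean rats, Slco1c1 was lower by a log2 difference of -0.43 without overlap (exact test, adjusted p = 0.0245, and 0.0536 without any 1 of the obese + TT rats, again with a group of 3 rats), where it was higher in TPM, and Slc5a5 had -0.03 (exact test, adjusted p = 0.429). In obese + TT against obese rats, Slco1c1 and Slc5a5 both had log2 differences of -0.20 that did not pass (exact test, adjusted p = 0.243 and 0.343). Relative to the markers, Slco1c1 in obese against lean rats had a log2 difference of -0.23 (exact test, adjusted p = 0.132, and 0.0438 with Otx2 left out). Of the 18 pairs, 8 passed on this scale, for which no share of calls or of lack of overlap over all genes was computed. The part of cell composition in the cohort differences was not tested.

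**Figure D3:**
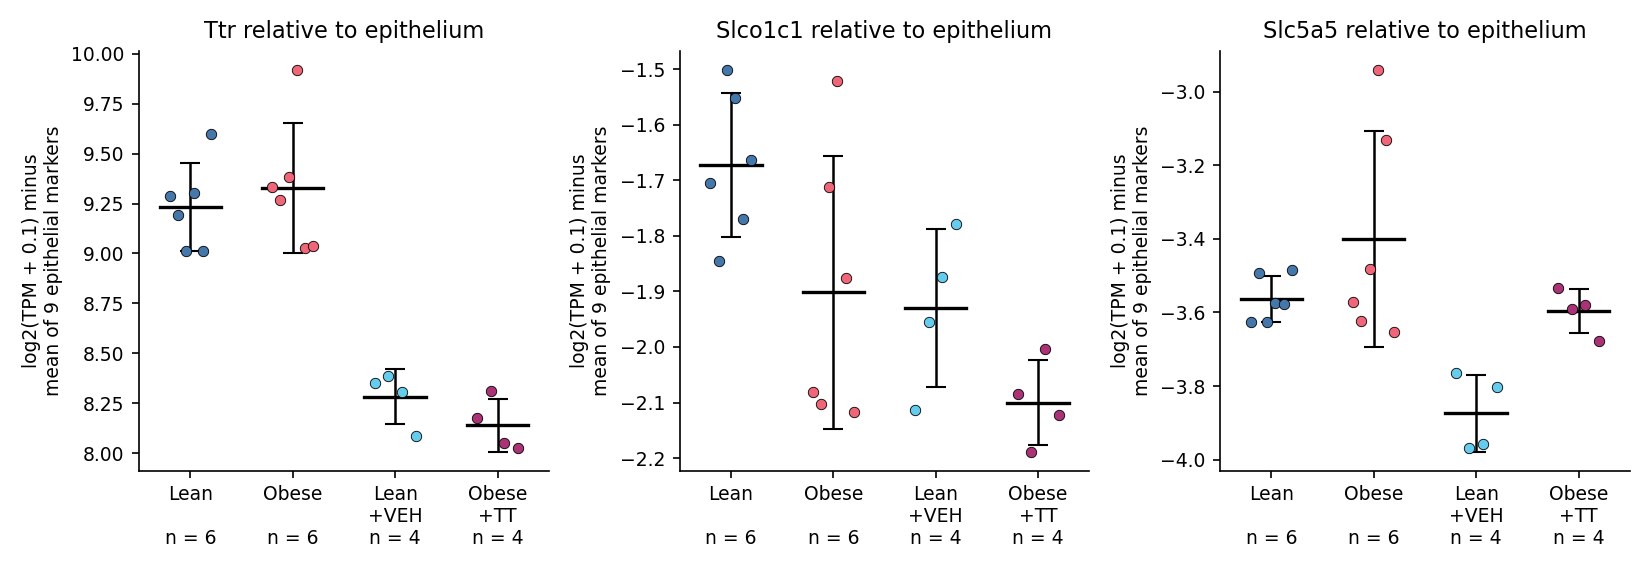
Level of Ttr, Slco1c1 and Slc5a5 relative to the epithelium, as log2(TPM + 0.1) minus the mean of 9 epithelial markers (vertical axes, log2 scale), with 1 point per rat and the mean ± SD as lines. Ttr is lower in all injected rats, and for Slc5a5 the 4 lean control rats lie below all other rats.

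Of 57 genes listed for thyroid hormone and iodide, 13 had a symbol in the tables used, among them the 3 members. Of these symbols, 2 (Dio2 and Hr) are known here only because the study lists the genes as changed, and 4 of the 13 are in its list for the untreated and 3 in that for the injected cohort, so the counts are not independent of the study's calls. Between obese and lean rats, none of the 13 was called, 10 were lower and 3 higher, with a median log2 fold change of -0.09 (0.02 over all genes tested). Between obese + TT and lean control rats, none of the 12 tested was called, 7 were lower and 5 higher, with a median of -0.02 (0.01 over all genes). None was called in the difference between both contrasts either, with 0.0% of all 15406 genes called by limma and 8.36% at an unadjusted p under 0.05, among them 2 of the 13.

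Among the membrane transporters of the hormone, 3 of 4 were called as higher in lean control against lean rats and 3 of 4 in obese + TT against obese rats. In each, 41.7% of all genes tested were called as higher. Slc7a8, an amino acid transporter that also carries thyroid hormone, had log2 fold changes of 0.98 and 0.99 in these comparisons (adjusted p = 5.29e-06 and 1.51e-05 from limma), beside 0.46 and 0.64 for Slco1c1. Slco1a2, an organic anion transporter, had 0.28 and 0.50, the first of which was 0.01 after centring. Slc3a2, which pairs with Slc7a8 at the membrane, was not called in any comparison.

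Of the genes for iodide, Slc5a6, a vitamin transporter that also carries iodide, rose by a log2 fold change of 0.46 in lean control against lean rats and by 0.57 in obese + TT against obese rats, near the values of Slc5a5. Slc5a6 averaged 97.2 ± 3.43 TPM in obese + TT rats and 97.8 ± 5.16 TPM in lean control rats (SD, n = 4 each), groups between which Slc5a5 did not overlap. Kcne2 encodes a potassium channel subunit that the symporter needs in the thyroid. For this gene lean control rats averaged 563 ± 27.6 TPM and obese + TT rats 615 ± 26.0 TPM (SD, n = 4 each), and it was not called in any comparison as deposited. After centring, Kcne2 was lower in lean control than in lean rats, with a log2 fold change of -0.28 (adjusted p = 0.00160 from limma).

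Thra, a nuclear receptor of the hormone, had log2 fold changes between cohorts of 0.41 and 0.48 (adjusted p = 0.000739 and 0.000266 from limma), or 0.14 and 0.22 after centring (adjusted p = 0.0973 and 0.0397 from limma). Dio2, the enzyme that makes the active hormone from thyroxine, ranged from 0.38 to 2.83 TPM among lean rats and from 0.18 to 1.34 TPM among obese rats, and was listed at 0 in 2 of 4 lean control and 3 of 4 obese + TT rats. It was called as lower in both comparisons between cohorts, in the second not with a pseudocount of 1 (adjusted p = 0.0647 from limma) or without obese + TT rat 17 or 20 (adjusted p = 0.0508 and 0.0506 from limma), and was too low to be tested within the injected cohort. Lrp1, an endocytic receptor of many ligands, rose between cohorts by log2 fold changes of 1.69 in both comparisons, the most among the 13 genes.

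Of the genes known to respond to the hormone, Hr and Me1 had a symbol. Hr, a corepressor and a classical target of the hormone in brain, averaged 4.55 ± 0.49 TPM in lean rats and 2.79 ± 1.15 TPM in obese rats (SD, n = 6 each). Its log2 fold change was -0.77 (95% interval -1.22 to -0.32, adjusted p = 0.284 from limma). Of the obese rats, 5 of 6 were below every lean rat, a pattern whose share over all genes was not computed. In the injected cohort Hr was 4.28, 3.63, 3.58 and 3.54 TPM in lean control and 2.59, 2.37, 2.69 and 2.55 TPM in obese + TT rats, without overlap and with a log2 fold change of -0.54 (95% interval -0.82 to -0.26, adjusted p = 0.385 from limma). A lack of overlap in this direction was found for 1.66% of all genes tested. Me1, the malic enzyme, averaged 42.1 ± 2.702 TPM in lean rats and 39.9 ± 4.21 TPM in obese rats (SD, n = 6 each). For Me1 in the injected cohort, lean control rats averaged 51.0 ± 4.72 TPM and obese + TT rats 58.4 ± 1.68 TPM (SD, n = 4 each), with an adjusted p from limma of 0.594. Hr and Me1 are in the study's own lists of changed genes.

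Between cohorts, 8 of the 13 genes were called as higher and 1 (Dio2) as lower in lean control against lean rats. In obese + TT against obese rats, 8 were called as higher and 2 (Ttr and Dio2) as lower. After centring, the first comparison had 4 called as higher (Slc5a5, Slc7a8, Slc5a6 and Lrp1) and 3 as lower (Dio2, Hr and Kcne2), and the second again 8 and 2. Over all genes tested, centring made it 29.0% called as higher and 30.2% as lower in the first, and 28.0% and 29.2% in the second. As deposited, it was 41.7% in each against 16.5% and 16.4%. The share of called genes over all genes tested was 58.2% and 58.1%, so calls between cohorts are the rule and not particular to these genes. The medians of the 13 were 0.28 and 0.50 on the log2 scale, beside 0.24 and 0.25 over all genes.

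**Figure D4:**
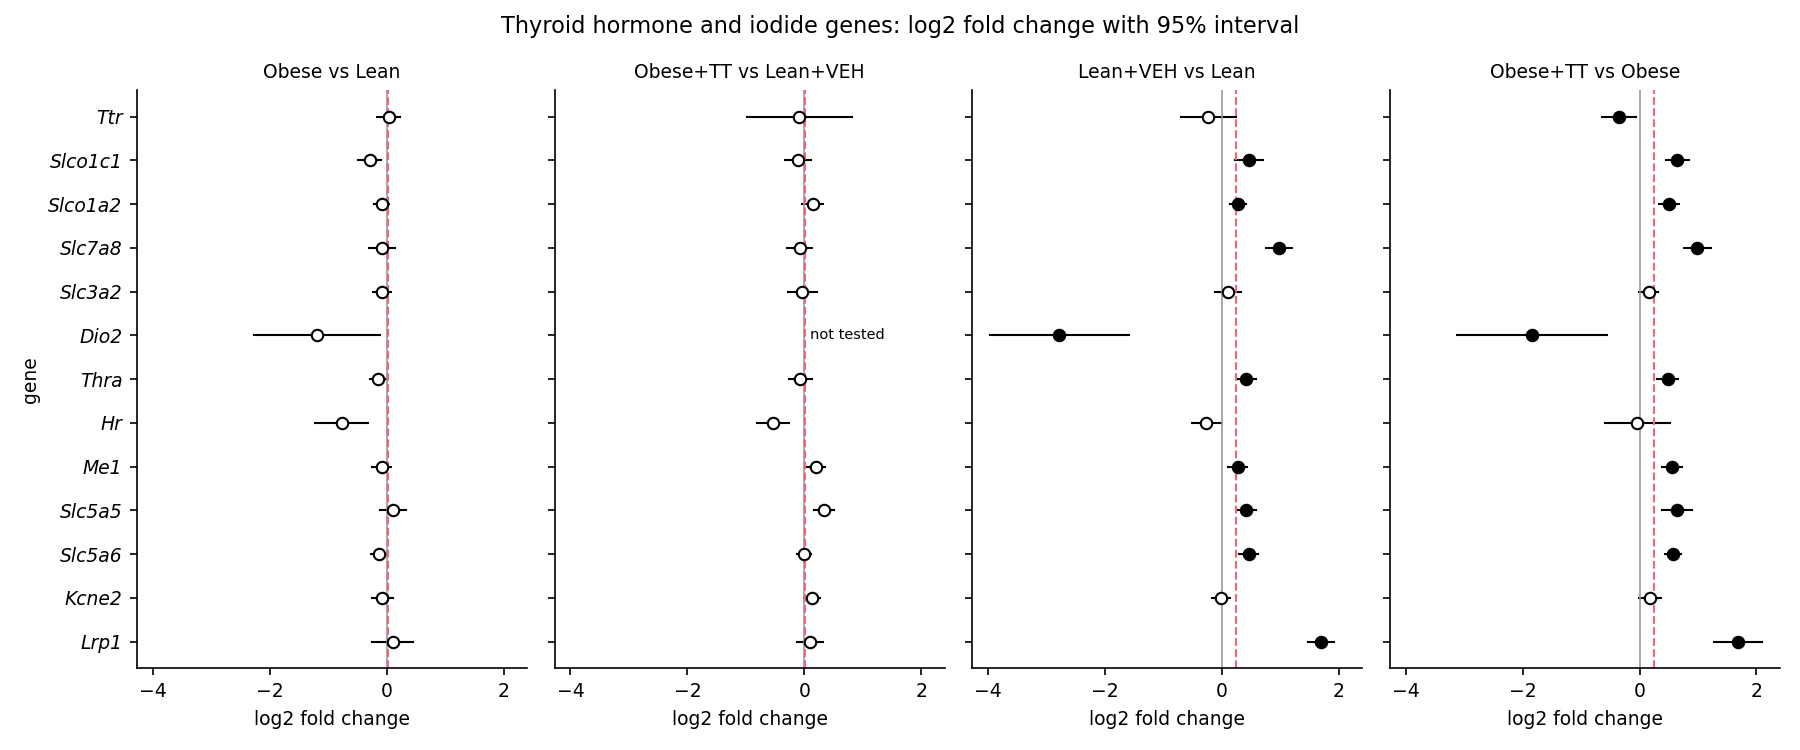
Log2 fold changes on the log2(TPM + 0.1) scale with 95% intervals for the 13 pathway genes in the comparisons of the study's groups, where filled black points passed an adjusted p under 0.05 and open points did not, and the red dashed line marks the median over all genes tested. No gene is black in the comparisons of obese with lean rats within a cohort, and the red line sits at 0.24 and 0.25 in those between cohorts.

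The genes whose levels followed each member most closely from rat to rat were sought among 2380 genes with a symbol and a mean of at least 10 TPM, after subtracting group means. For Slc5a5, they were Abca2, a lipid transporter (Pearson r = 0.91, Spearman rho = 0.91), Atp2b2, a plasma membrane calcium pump (0.89 and 0.89), Mfrp, a frizzled-related membrane protein (0.89 and 0.88), Iqsec1 (0.88 and 0.76) and Myo5c (0.87 and 0.89). These r values were still between 0.73 and 0.88 without obese rats 11 and 8. For Slco1c1, they were Zic1, a transcription factor (0.78 and 0.78), Amd1, an enzyme of polyamine synthesis (0.77 and 0.75), Trpv4, a cation channel (0.77 and 0.71), Atp6v1a (0.76 and 0.68) and Wfikkn2 (0.76 and 0.81). For Ttr, they were the mitochondrial genes Mt-nd6 and Mt-nd1 (r = 0.57 for both, rho = 0.36 and 0.42), which fell to r = 0.13 for both without lean rat 6 and obese rat 10, then Mpzl2, LOC689574 and Cebpzos with r from 0.34 to 0.51. Among the members, r was 0.55 between Slco1c1 and Slc5a5, -0.45 between Ttr and Slco1c1 and -0.30 between Ttr and Slc5a5. The 20 points of each pair share the library and the fixed total of TPM, of which Ttr alone holds 25.8 to 39.3%, so these values are descriptions only.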

How the data were processed

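Per the labels, total RNA was sequenced as paired-end reads, and the submitters' processing notes name STAR 2.7.9a, RSEM 1.3.3 and the rat build Rnor_6.0 (rn6). The authors deposited TPM and FPKM per gene and rat. TPM sums to 1000000 per library, and the deposited FPKM, checked only, is TPM times 1 factor per library within 0.0969%. The program behind both is not given in the sources used here. The study states a nominal sequencing output, but the depth of each library is not known, and PCR or counting error cannot be given.

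The study's own test models counts, which were not used here. In their place limma 3.58.1 in R 4.3.3 compared log2(TPM + 0.1), allowing for a trend of spread with level. Genes had to reach 0.1 TPM on average in the libraries fitted, which were those of the groups compared (all 20 for the difference between contrasts), with Benjamini-Hochberg adjustment and calls at an adjusted p under 0.05. A fold change on this scale understates the change of low genes. Members were compared in all 6 pairs of groups by exact two-sided permutation tests (scipy 1.17.1), adjusted over 18 tests, on TPM and relative to the epithelial markers. The limma script was tested on simulated data. Rats were taken as replicates from the labels. Among the 42 pairs of libraries of 1 group, at most 1.92% of values were identical, and no library was counted as a duplicate.

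Symbols came from 2 supplementary tables of the study, which name 2616 of the 32883 identifiers. Fold changes and p-values of the authors in these tables were not used. Named were the members, pathway genes averaging 1 TPM or more or called in a comparison, and for each member the 5 genes most like it. A gene of the pathway lists is not reported here. The members and lists were chosen with earlier results of these data known. Alternatives were another pseudocount, other filters, 2 other scalings, all libraries in 1 fit, no trend, the robust option and each rat left out. Leaving out Otx2 was chosen after seeing the data.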

Additional observations from a re-analysis of the deposited data

Results flagged for a closer look

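Each of the 13 pathway genes was checked for a rat standing apart from its group, by the gap to the nearest rat over the whole range. Of the 52 groups checked, 5 held such a rat, beside about 2.6 by chance alone. The genes share the same rats, so an excess cannot be read from these counts. Slc5a5 was at 70.63 TPM in obese rat 11, where the other obese rats were at 42.99 to 52.83 TPM. Slc7a8 was at 41.47 TPM in lean rat 2 (others 30.01 to 32.8 TPM), Thra at 58.6 TPM in lean control rat 16 (others 47.8 to 48.84 TPM), and Hr at 4.28 TPM in lean control rat 13 (others 3.54 to 3.63 TPM). Dio2 was at 0.35 TPM in obese + TT rat 19, where the others were listed at 0, so that the gap was the whole range. No obese-lean difference of these genes was shown to differ between the cohorts by the test of the difference itself.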

How the results depend on the processing

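No paired analysis was possible because the labels number the rats from 1 to 20 and no number is shared between groups. Over all genes, limma called 1 gene between obese and lean rats after centring on the median and 3 in a fit of all 20 libraries (0 to 1 with 1 rat left out), 6 between obese + TT and lean control rats in a fit of all 20 libraries (0 to 25 with 1 rat left out, the 25 without lean control rat 13), and in the difference between contrasts 1 with a mean of at least 1 TPM, 10 after rescaling without Ttr, 2 after centring and 1 with the robust option (0 to 14 with 1 rat left out, the 14 without lean control rat 13). The cause was not tested.

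For Ttr in lean control against lean rats, the log2 fold change of -0.23 passed in limma with a mean of at least 1 TPM (adjusted p = 0.0368), without the trend (0.0259) and with the robust option (0.00743), and in obese + TT against obese rats the -0.35 did not pass with a pseudocount of 1 or with no filter, and ranged from -0.38 to -0.31 with 1 rat left out. Ttr in obese against lean rats ranged from -0.0067 to 0.071 with 1 rat left out, the same in the exact test, and from -0.024 to 0.17 relative to the markers. For Slco1c1 in lean control against lean rats, centring gave a log2 fold change of 0.20, which did not pass (adjusted p = 0.0743 from limma). The members' pairs that passed, 13 as reported, were 8 after centring and 9 to 14 with 1 rat left out. Relative to the markers, where 8 passed, they were 0 to 9 with 1 rat left out, where a group of 3 rats raises the smallest p. Slco1c1 in lean control against obese rats, -0.03 relative to the markers, was 0.027 with Otx2 left out and -0.079 to 0.048 with 1 rat left out.

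Small differences of uncalled genes changed sign. After rescaling without Ttr these were Slc7a8 in the difference between contrasts (-0.039) and Slc3a2 in lean control against lean rats (-0.00043). After centring they were Slc3a2 in lean control against lean (-0.15) and obese + TT against obese rats (-0.10), and Kcne2 in the latter (-0.078). With 1 rat left out, the ranges were -0.0016 to 0.19 for Lrp1 in obese against lean rats, -0.13 to 0.036 for Slc3a2 and -0.046 to 0.015 for Slc5a6 in obese + TT against lean control rats, -0.047 to 0.016 for Kcne2 in lean control against lean rats, -0.18 to 0.13 for Hr in obese + TT against obese rats, and in the difference between contrasts -0.071 to 0.086 for Slc7a8, -0.048 to 0.12 for Slc3a2 and -0.099 to 0.095 for Lrp1. Without read counts, the precision of low genes such as Dio2 is not known.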
